A study of Homo sapiens with 12 samples.

Results

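The proteasome genes of RCC4, a kidney cancer cell line of the clear cell type, were followed through knockdown of MESH1, of ATF4 and of both. Members were all genes whose symbol begins with PSMA, PSMB, PSMC, PSMD, PSME, PSMF or PSMG followed by a digit and that had a probe set carrying that symbol alone. The rule found 41 of the 11963 genes tested, measured by 65 probe sets. They comprised 27 constitutive subunits, 4 inducible genes (PSMB8, PSMB9, PSMB10 and PSME1), 5 assembly chaperones, and 3 other genes for activators or an inhibitor (PSME3, PSME4 and PSMF1). The remaining 2, PSMC3IP and PSME3IP1, carry the prefix without encoding a proteasome subunit. PSME2, PSMA6, PSMA8, PSMB11, PSMC5, PSMD7, PSMD13, PSMG3 and PSMG4 were not analysed here as genes.

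Expression was measured on 12 Affymetrix arrays in 4 groups of 3 biological replicates. The groups received a non-targeting siRNA (siNT), siRNA against MESH1 (siMESH1), siRNA against ATF4 (siATF4), or both together (siMESH1+siATF4). Every culture was transfected with 40 pmol of siRNA and collected after 72 h, and no group was left untransfected. Whether each siRNA of the combined transfection was used at the amount of the single knockdowns is not stated in the labels or the methods. Each gene was silenced with 1 siRNA reagent, so a second reagent that would separate effects of the target from those of the reagent was not part of these arrays. The comparisons address which part of the response to MESH1 knockdown depends on ATF4, the transcription factor of the integrated stress response; MESH1 is an NADPH phosphatase. All values are on the log2 scale relative to the siNT mean of the same gene, so they are differences and not levels, and levels cannot be compared between genes. Below, a gene is said to have fallen or risen when the Benjamini-Hochberg adjusted p of limma was under 0.05 over all genes, and to have been called when it also moved by at least 0.5 on the log2 scale.

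ATF4 itself was at -2.31 in siATF4 (SE 0.07, adjusted p = 8.2e-10), -2.32 in siMESH1+siATF4 and -0.03 in siMESH1. HDDC3, which encodes MESH1, was not analysed here, so its silencing was not checked. Array medians over all probe sets lay between -0.0086 and 0.031. Because the arrays read bulk RNA, fewer cells carrying a transcript and less of it per cell cannot be told apart.

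The proteasome degrades proteins that carry ubiquitin chains. Its 20S core is a barrel of alpha rings, which gate the entry, around beta rings, of which PSMB5, PSMB6 and PSMB7 carry the proteolytic sites. The 19S particle caps the barrel: its base of ATPases unfolds substrates, and its lid removes ubiquitin. Under interferon, PSMB8, PSMB9 and PSMB10 take the places of PSMB5, PSMB6 and PSMB7 to form the immunoproteasome, and PSME1 and PSME2 form the PA28 activator, all of which shape the peptides shown by MHC class I. Constitutive subunits are known to be induced together by NFE2L1 through antioxidant response elements when proteasome activity falls.

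The sequences before the transcription start are shown for the chaperone and the subunit that fell most, PSMG1 and PSMA5, and for the 3 immunoproteasome subunits, which moved apart from one another once ATF4 was silenced. They are RefSeq sequences of build GRCh38.p14, 250 bases each, printed 5′ to 3′ on the gene's own strand. PSMG1 lies at chr21:39183452-39183701 on the minus strand, and PSMA5 at chr1:109426449-109426698 on the minus strand. PSMB8, at chr6:32844048-32844297 on the minus strand, is 1 of 2 windows of that gene and the one with a motif match. PSMB9 is at chr6:32853942-32854191 on the plus strand, and PSMB10 at chr16:67936851-67937100 on the minus strand. Capitals mark matches, on either strand, to the CCAAT box (CCAAT), the antioxidant response element core (TGACNNNGC), the gamma interferon activated site (TTCNNNGAA) and the interferon-stimulated response element core (GAAANNGAA).
PSMG1: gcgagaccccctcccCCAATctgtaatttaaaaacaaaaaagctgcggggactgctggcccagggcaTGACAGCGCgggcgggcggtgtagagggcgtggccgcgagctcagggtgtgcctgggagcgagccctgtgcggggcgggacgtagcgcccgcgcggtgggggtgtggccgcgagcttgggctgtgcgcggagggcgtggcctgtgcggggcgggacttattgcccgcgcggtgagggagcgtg
PSMA5: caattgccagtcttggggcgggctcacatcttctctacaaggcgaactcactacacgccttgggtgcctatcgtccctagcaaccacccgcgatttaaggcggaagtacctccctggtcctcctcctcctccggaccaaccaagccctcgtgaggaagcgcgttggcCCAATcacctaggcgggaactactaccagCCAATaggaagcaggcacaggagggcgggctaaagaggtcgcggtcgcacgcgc
PSMB8: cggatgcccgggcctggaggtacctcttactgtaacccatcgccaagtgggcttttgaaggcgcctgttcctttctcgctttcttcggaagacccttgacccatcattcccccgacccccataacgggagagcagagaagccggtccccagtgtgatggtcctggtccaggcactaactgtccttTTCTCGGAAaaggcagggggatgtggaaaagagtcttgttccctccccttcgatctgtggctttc
PSMB9: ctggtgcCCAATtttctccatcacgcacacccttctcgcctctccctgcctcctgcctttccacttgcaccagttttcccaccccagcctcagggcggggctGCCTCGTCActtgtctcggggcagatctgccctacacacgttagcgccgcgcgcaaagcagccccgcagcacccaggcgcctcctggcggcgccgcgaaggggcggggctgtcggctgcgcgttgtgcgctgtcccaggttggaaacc
PSMB10: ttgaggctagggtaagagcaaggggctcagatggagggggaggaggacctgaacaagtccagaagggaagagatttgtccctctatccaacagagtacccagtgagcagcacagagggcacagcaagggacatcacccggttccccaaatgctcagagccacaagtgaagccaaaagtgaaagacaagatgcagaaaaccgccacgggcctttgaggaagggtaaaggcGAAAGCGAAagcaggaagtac

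PSMG1 held a CCAAT box and an antioxidant response element core, starting 235 and 183 bases before the start. PSMA5 held a pair of CCAAT boxes, at 83 and 54 bases. The immunoproteasome genes differed from one another: PSMB8 held a gamma interferon activated site at 65 bases, PSMB10 an interferon-stimulated response element core at 21 bases, and PSMB9 a CCAAT box at 243 bases and, on the other strand, an antioxidant response element core at 148 bases. PSMB9 and TAP1, which encodes a subunit of the peptide transporter of antigen presentation, run in opposite directions from starts 488 bases apart.

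Of the 41 members 36 matched a RefSeq window, 45 windows in all. The CCAAT box was present in 20 of these (44.4%) and in 32.0% of the 35116 windows of all genes. The antioxidant response element core was present in 11 (24.4%) and in 10.9% of all windows, and the gamma interferon activated site in 6 (13.3%) and in 6.57%. The interferon-stimulated response element core was present in 3 (6.67%) and in 6.88% of all windows. The E2F site TTTNGCGC was present in 1 window, of PSMD9, and in 1.51% of all. The ATF4 composite element TGATGNAA, the cyclic AMP response element TGACGTCA and the NF-kB site core GGGACTTTC were in 0 of the 45 windows and in 3.14%, 1.65% and 0.325% of all, which says only that these letters are not in these windows. Both strands were searched for each motif, and motifs can share letters, as where the GAA that closes TTCNNNGAA also opens GAAANNGAA. These matches describe the letters and not bound sites.

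MESH1 knockdown alone lowered most proteasome genes by a small amount. In siMESH1, 30 of the 41 members fell (73.2%, against 16.3% of all genes) and 1 rose (against 17.3%), whereas 7 fell and 20 rose when each array was centred on the mean of 10 housekeeping genes, and 16 fell and 10 rose when it was centred on their median. Their median was -0.28 and that of all genes was 0.03. Falls past the fold minimum were called for 6 members, against 5.37% of all genes, and rises for 0 members, against 2.82%; at an unadjusted p under 0.05 with the same fold minimum limma and the methods' t-test, run on the same values, also gave 0 rises. With centring on the housekeeping mean 2 falls and 1 rise, that of PSMD10 at 0.52, were called. The called members were PSMG1, PSMC3IP, PSMA5, PSMD14, PSMD11 and PSME3IP1. PSMD12, at -0.50 (SE 0.05, adjusted p = 4.6e-06), and PSMC3, at -0.49 (SE 0.07, adjusted p = 0.00018) lay just short of the minimum, and leaving out 1 array at a time gave 5 to 8 called members. The plot of all members by role shows the shift across the core, the base and the lid.

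**Figure D1:**
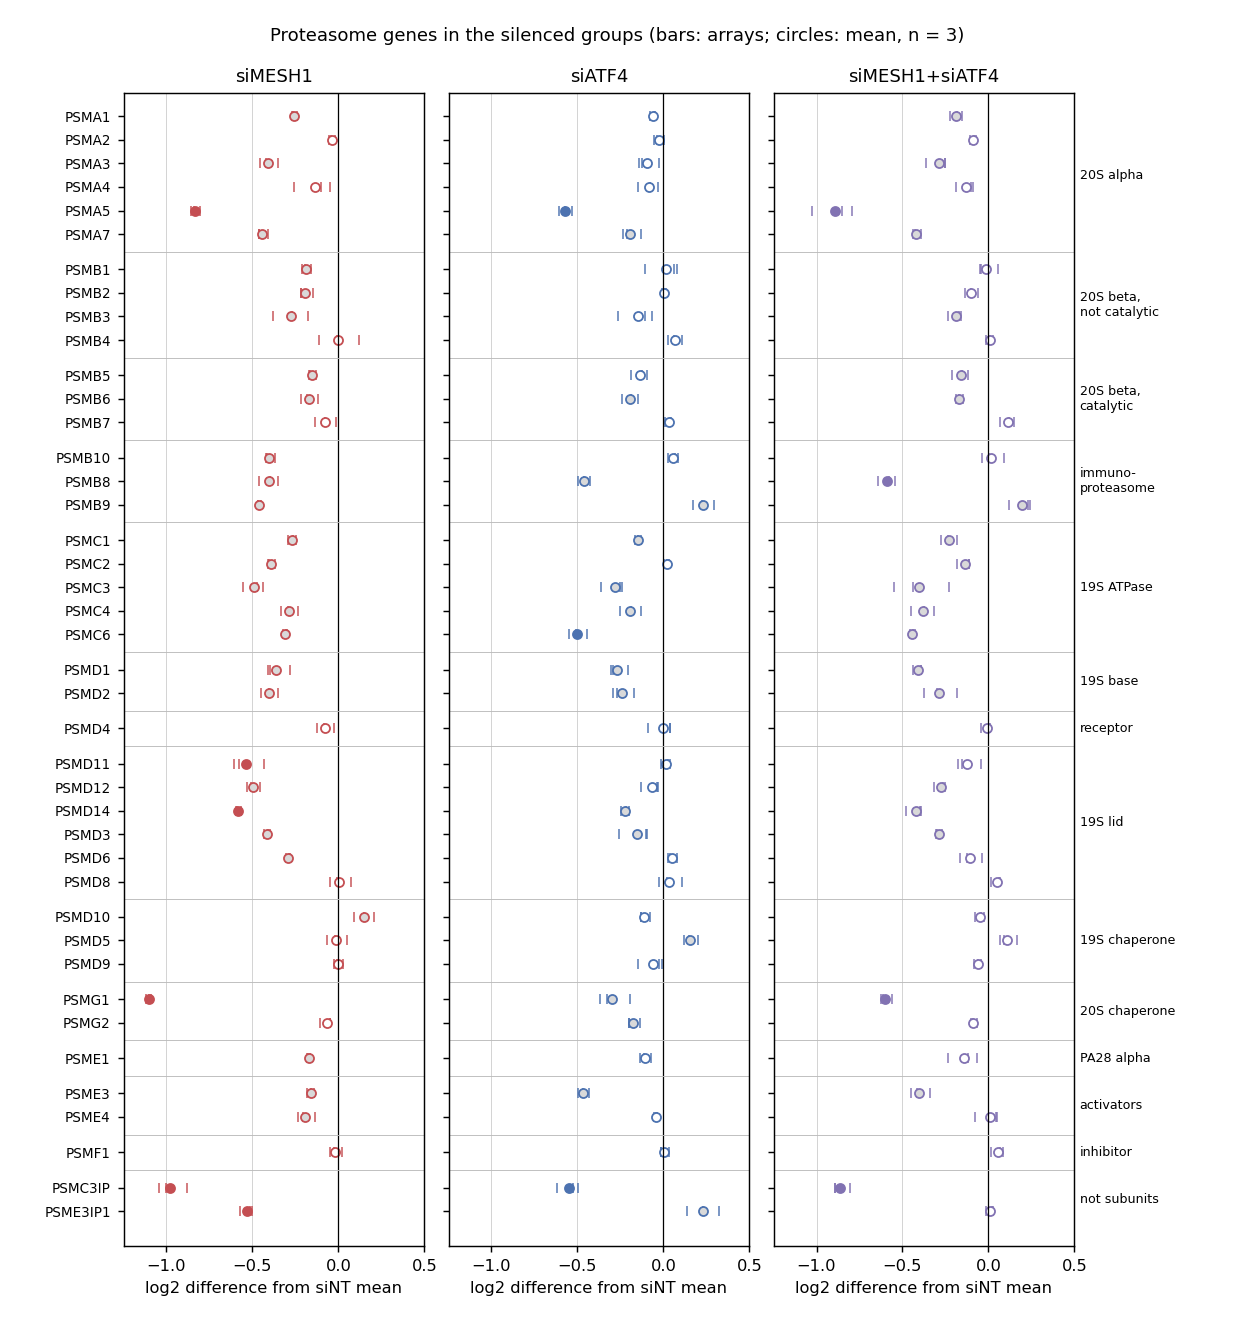
Log2 difference from the siNT mean (x axis) for the 41 proteasome genes (y axis, grouped by role) in siMESH1, siATF4 and siMESH1+siATF4; short bars are the 3 arrays and circles their mean, filled where called, grey where the adjusted p alone was under 0.05 and open otherwise. In siMESH1 39 of the 41 means lie below 0, in siATF4 28 and in siMESH1+siATF4 32.

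The constitutive subunits and the 4 inducible genes shared this shift. As deposited all 4 inducible genes fell in siMESH1 (against 16.3% of all genes), with a median of -0.40. Of the 27 constitutive subunits 21 fell there (77.8%, against 16.3%), with a median of -0.29 and a range from -0.83 to 0.00. With centring on the housekeeping mean 4 of these 27 fell and 12 rose. The median over the 27 subunits on each array was -0.25, -0.29 and -0.30 in siMESH1, against 0.01, 0.02 and -0.02 in siNT. In siATF4 it was -0.09, -0.11 and -0.09, and in siMESH1+siATF4 -0.15, -0.19 and -0.18. As deposited, no array of a silenced group overlapped the siNT arrays, and the siMESH1+siATF4 arrays lay between those of the single knockdowns.

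Within the 20S core, PSMA5, an alpha ring subunit, moved farther than its neighbours. Its siNT values were 0.08, -0.04 and -0.04 and its siMESH1 values -0.86, -0.80 and -0.84. It stood at -0.61, -0.53 and -0.57 in siATF4 and at -0.79, -0.85 and -1.03 in siMESH1+siATF4. All 9 arrays of the silenced groups lay below all siNT arrays. PSMA5 was called in each, at -0.83 (SE 0.06, adjusted p = 4.3e-07), -0.57 (adjusted p = 1.8e-05) and -0.89 (adjusted p = 1.9e-07).

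The other alpha subunits changed less. PSMA7 fell by 0.45, PSMA3 by 0.41 and PSMA1 by 0.26 in siMESH1, while PSMA2 and PSMA4 stood at -0.04 and -0.14 without passing the test. As deposited, 4 of the 6 alpha subunits fell in siMESH1 (against 16.3% of all genes). In siATF4 2 fell, PSMA5 and PSMA7 (against 13.8%), and in siMESH1+siATF4 4 fell (against 16.0%). The beta subunits without a proteolytic site moved by little: PSMB1, PSMB2 and PSMB3 fell by 0.19, 0.19 and 0.28 in siMESH1, and PSMB4 stood at 0.00. In siATF4 these 4 ranged from -0.15 to 0.07. Among these alpha and beta genes 1 of 10, PSMA5, was called in siMESH1, against 5.37% of all genes called lower. The others changed by less than 0.5. The probe sets of PSMB2 stood at -0.43 and 0.04 there, and those of PSMB1 ranged from -0.32 to 0.01. Centring on the housekeeping mean moved all siMESH1 values up by 0.37. That shift is larger than the falls of PSMA1, PSMB1, PSMB2 and PSMB3, which stood above 0 with it.

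In the 19S base the ATPases moved as a block in siMESH1. All 5 measured (PSMC1, PSMC2, PSMC3, PSMC4 and PSMC6) fell, by 0.27 to 0.49, against 16.3% of all genes. With centring on the housekeeping mean they instead ranged from -0.12 to 0.10 and 1 rose. In siATF4 4 of the 5 fell (against 13.8% of all genes) and PSMC2 stood at 0.02, with its probe sets at -0.13 and 0.17. In siMESH1+siATF4 all 5 fell (against 16.0%), from -0.44 to -0.14. PSMC6 was the ATPase that fell most in siATF4, with values of -0.44, -0.55 and -0.51 against 0.01, 0.03 and -0.04 in siNT. Its siMESH1 values were -0.31, -0.32 and -0.30, and its siMESH1+siATF4 values -0.46, -0.43 and -0.44. The call in siATF4, at -0.50 (SE 0.05, adjusted p = 3.5e-06), lay at the fold minimum and moved to between -0.50 and -0.48 without siATF4 replicate 2 or 3 or siNT replicate 1 or 2, below the minimum. As deposited PSMD1 and PSMD2, the scaffold subunits of the base, fell in every silenced group. The falls were 0.36 and 0.40 in siMESH1, 0.27 and 0.24 in siATF4, and 0.41 and 0.29 in siMESH1+siATF4. Centring on the housekeeping mean moved values up by 0.37, 0.175 and 0.26 in these groups. Little of either fall was left with it in siMESH1, and less than the deposited fall in the other groups. The ubiquitin receptor PSMD4 stood at -0.08, 0.00 and -0.01 and did not pass in any of these.

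The 6 measured genes of the lid had a median of -0.46 in siMESH1, and 5 fell (83.3%, against 16.3% of all genes). With centring on the housekeeping mean the median was instead -0.09, 3 fell and 1 rose. PSMD14, the lid's deubiquitinase, had siNT values of 0.00, 0.03 and -0.04 and siMESH1 values of -0.60, -0.59 and -0.57. It was -0.22, -0.20 and -0.24 in siATF4 and -0.39, -0.40 and -0.48 in siMESH1+siATF4, so the groups did not overlap. The fall of 0.59 in siMESH1 had an SE of 0.05 and an adjusted p of 5.7e-07. PSMD11, a lid scaffold, behaved differently: it was -0.61, -0.58 and -0.43 in siMESH1, but -0.02, 0.03 and 0.04 in siATF4 and -0.15, -0.18 and -0.05 in siMESH1+siATF4, against 0.03, 0.01 and -0.04 in siNT. PSMD11 was called in siMESH1 alone among these groups (-0.54, SE 0.06, adjusted p = 1.2e-05). PSMD12, PSMD3 and PSMD6 fell by 0.50, 0.41 and 0.29 in siMESH1, and PSMD8 stood at 0.00.

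Assembly chaperones build the particle and leave it when it is finished. The 5 found by the prefix did not share the shift apart from PSMG1, and genes without the prefix are not counted among these. PSMG1 pairs with PSMG2 to start the alpha ring. The siMESH1 arrays gave -1.10, -1.09 and -1.12 for PSMG1, against -0.04, 0.04 and 0.00 for siNT. Values were -0.19, -0.37 and -0.33 in siATF4 and -0.56, -0.62 and -0.61 in siMESH1+siATF4. The siMESH1 arrays were the lowest, the siMESH1+siATF4 arrays lay between them and the siATF4 arrays, and no groups overlapped. The siMESH1 change, -1.10 (SE 0.05, adjusted p = 8e-09), was a 2.15-fold fall. PSMG2, its partner, stood at -0.07 in siMESH1 (adjusted p = 0.28) and fell by 0.18 in siATF4. Among the 19S chaperones PSMD10 rose by 0.15 in siMESH1 (adjusted p = 0.028), the 1 member that rose there, but did not pass with array median centring, with only the groups compared, or without siMESH1 replicate 1 or 2 or siNT replicate 2 or 3. PSMD5 rose by 0.16 in siATF4 (adjusted p = 0.035). PSMD9 stood between -0.06 and 0.00 in the silenced groups.

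**Figure D2:**
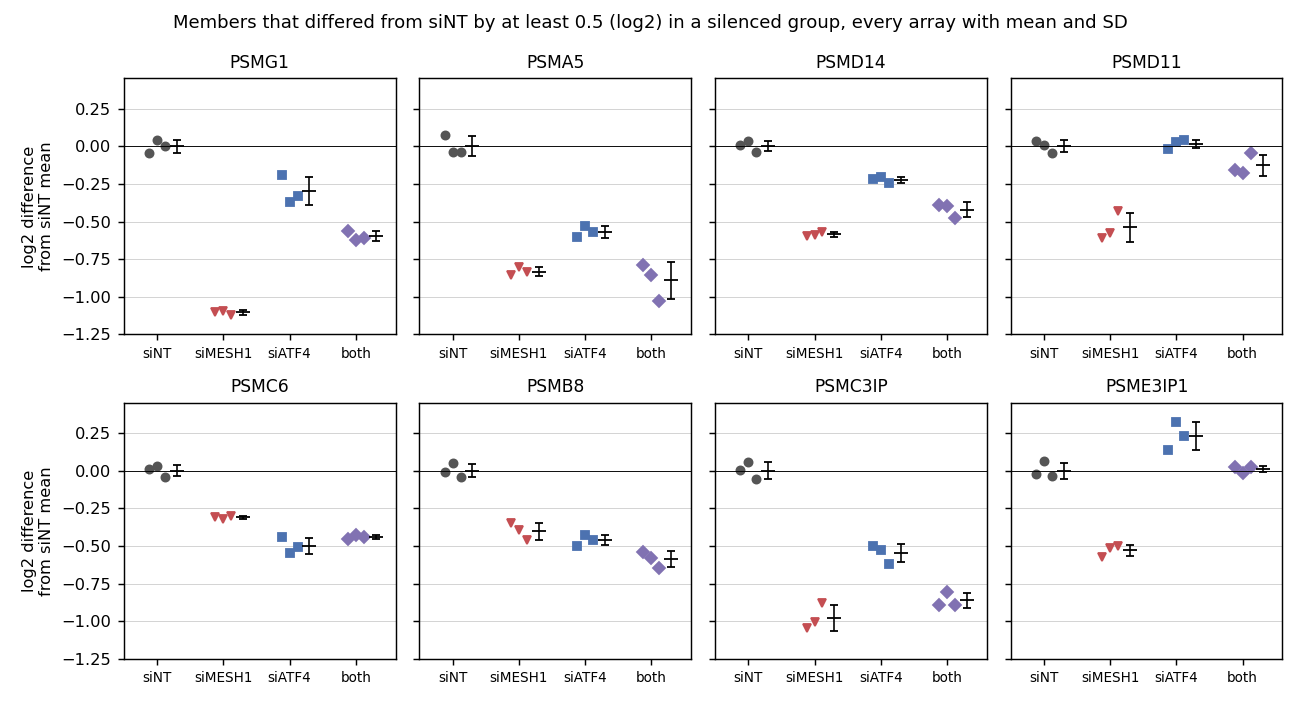
Log2 difference from the siNT mean (y axis) in each of the 12 arrays by group (x axis; both is siMESH1+siATF4) for the 8 members called against siNT in a silenced group, with the mean and SD of 3 arrays in black. PSMG1 lies near -1.10 in siMESH1 and near -0.60 in siMESH1+siATF4. PSME3IP1 is low in siMESH1 alone, and PSMD11 is lowest there, with its siMESH1+siATF4 arrays also below those of siNT.

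The 3 immunoproteasome subunits fell in siMESH1, by 0.40 to 0.46, and separated once ATF4 was silenced, whereas with centring on the housekeeping mean they stood between -0.10 and -0.04 in siMESH1 and did not pass. PSMB8, which replaces PSMB5, had siNT values of -0.01, 0.05 and -0.04. It was -0.35, -0.40 and -0.46 in siMESH1, -0.50, -0.43 and -0.46 in siATF4, and -0.54, -0.58 and -0.64 in siMESH1+siATF4. All silenced arrays lay below siNT. Its change was -0.40 (SE 0.05, adjusted p = 4.5e-05) in siMESH1, -0.46 (adjusted p = 1.8e-05) in siATF4 and -0.59 (adjusted p = 1.3e-06) in siMESH1+siATF4, and the last of these was called.

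PSMB9, which replaces PSMB6, ran the other way under ATF4 knockdown. It was 0.04, 0.08 and -0.12 in siNT, -0.47, -0.45 and -0.47 in siMESH1, 0.23, 0.30 and 0.17 in siATF4, and 0.24, 0.23 and 0.12 in siMESH1+siATF4. The siMESH1 arrays lay below all others and the arrays with ATF4 silenced above siNT. It fell by 0.46 in siMESH1 (SE 0.06, adjusted p = 7.1e-05; without siNT replicate 3 it was called there, at -0.52), rose by 0.23 in siATF4 (adjusted p = 0.012) and by 0.20 in siMESH1+siATF4 (adjusted p = 0.025). Neither rise held throughout: that in siATF4 had an adjusted p of 0.057 without siATF4 replicate 2, and that in siMESH1+siATF4 one of 0.088 and 0.076 without siMESH1+siATF4 replicate 1 or 2, 0.1 without siNT replicate 3 and 0.07 with only the groups compared. From siMESH1 to siMESH1+siATF4 it moved by 0.66 (SE 0.06, adjusted p = 5e-06), a 1.58-fold rise and the largest of the members in that comparison.

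PSMB10, which replaces PSMB7, fell in siMESH1 alone. Its values were -0.04, 0.14 and -0.10 in siNT and -0.42, -0.37 and -0.42 in siMESH1, but 0.02, 0.07 and 0.08 in siATF4 and -0.04, 0.09 and 0.00 in siMESH1+siATF4. The last 2 groups overlapped siNT. The fall in siMESH1 was 0.40 (SE 0.06, adjusted p = 0.00028). Against siNT, the 95% interval of the difference was -0.08 to 0.20 in siATF4 and -0.12 to 0.16 in siMESH1+siATF4. PSMB10 was 0.42 higher in siMESH1+siATF4 than in siMESH1 (adjusted p = 0.00028).

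PSME1, the alpha chain of PA28, was -0.17, -0.18 and -0.18 in siMESH1, against -0.02, 0.05 and -0.03 in siNT. It was -0.12, -0.14 and -0.07 in siATF4 and -0.07, -0.12 and -0.23 in siMESH1+siATF4. It fell in siMESH1 (-0.17, SE 0.05, adjusted p = 0.019), and did not pass in siATF4 (adjusted p = 0.15) or siMESH1+siATF4 (adjusted p = 0.052). The sign of PSME1 in siMESH1 turned to 0.19 and 0.08 with centring on the housekeeping mean and median.

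**Figure D3:**
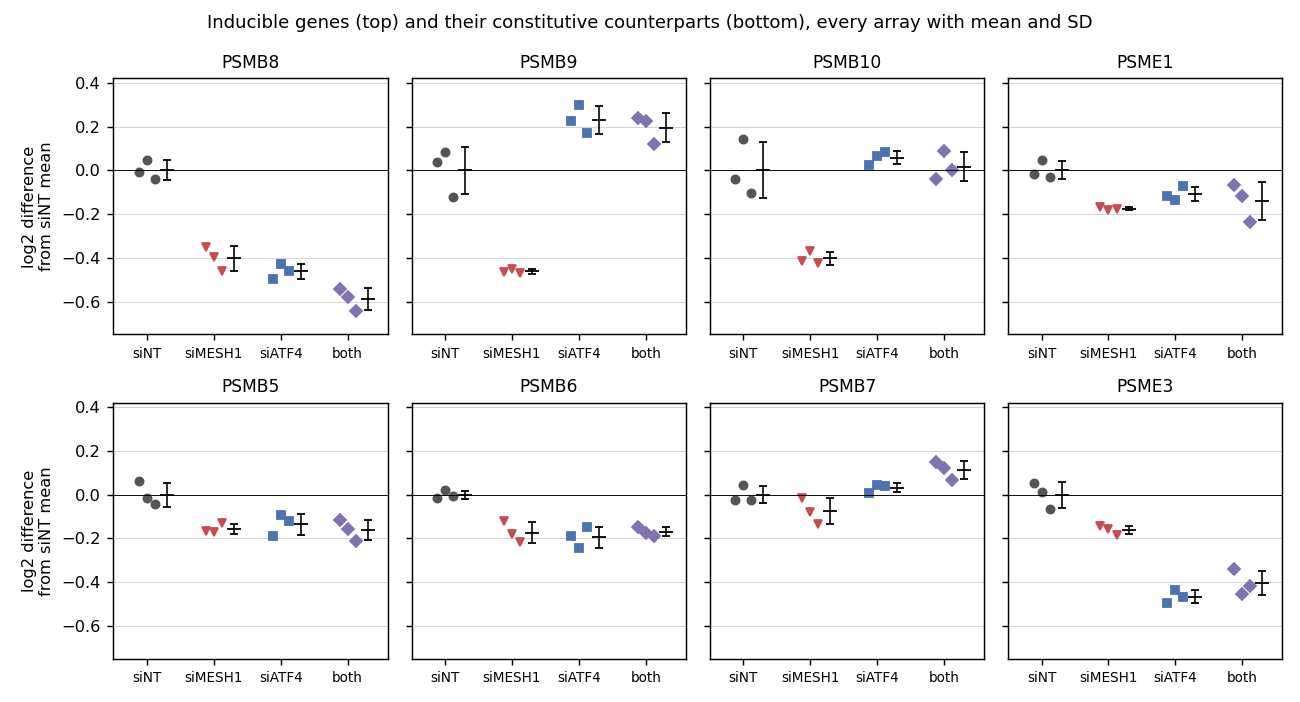
Log2 difference from the siNT mean (y axis) in each of the 12 arrays by group (x axis; both is siMESH1+siATF4) for PSMB8, PSMB9, PSMB10 and PSME1 (top) and for PSMB5, PSMB6, PSMB7 and PSME3 (bottom), with the mean and SD of 3 arrays in black. PSMB9 and PSMB10 are low in siMESH1 alone, and PSMB8 is low in all 3 silenced groups.

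The constitutive counterparts moved less in siMESH1. PSMB5, the chymotrypsin-like subunit, was 0.06, -0.02 and -0.04 in siNT, -0.17, -0.17 and -0.13 in siMESH1, -0.19, -0.09 and -0.12 in siATF4, and -0.12, -0.15 and -0.21 in siMESH1+siATF4. PSMB6, the caspase-like subunit, was -0.02, 0.02 and 0.00 in siNT, -0.12, -0.18 and -0.22 in siMESH1, -0.19, -0.24 and -0.15 in siATF4, and -0.15, -0.17 and -0.19 in siMESH1+siATF4. PSMB7, the trypsin-like subunit, was -0.02, 0.05 and -0.02 in siNT, -0.02, -0.08 and -0.13 in siMESH1, 0.01, 0.05 and 0.04 in siATF4, and 0.15, 0.12 and 0.07 in siMESH1+siATF4. As deposited PSMB5 and PSMB6 thus lay below siNT on all silenced arrays, and PSMB7 overlapped it in both single knockdowns. PSMB6 fell in every silenced group, PSMB5 in siMESH1 and siMESH1+siATF4, and PSMB7 in none, with adjusted p between 0.096 and 0.69. Centring on the housekeeping mean moved values up by 0.37 in siMESH1 and 0.26 in siMESH1+siATF4. Those shifts are larger than the falls of PSMB5 and PSMB6, so both stood above 0 there with it. In siATF4 the shift was 0.175 and PSMB6 stood at -0.19 as deposited.

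Each immunoproteasome subunit was then set against the subunit it replaces on the same array, a difference that no centring of the arrays can move. PSMB8 minus PSMB5 changed by -0.25, -0.33 and -0.43 in siMESH1, siATF4 and siMESH1+siATF4 relative to siNT, and all arrays lay below siNT. PSMB9 minus PSMB6 changed by -0.29 in siMESH1, and by 0.43 in siATF4 and 0.36 in siMESH1+siATF4, also without overlap. PSMB10 minus PSMB7 changed by -0.33 in siMESH1, where the arrays did not overlap, and by 0.03 in siATF4 and -0.09 in siMESH1+siATF4, where they did. For the 7 differences without overlap the exact two-sided permutation test gave p = 0.1, the smallest that 3 against 3 arrays allow, and 0.129 after adjustment over the 9 tests. The other 2 gave p = 0.7 and 0.4 by the same exact test, and 0.05 is out of reach in this design.

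The other activators split by knockdown. PSME3, the nuclear PA28 gamma, was 0.05, 0.01 and -0.06 in siNT, -0.14, -0.16 and -0.18 in siMESH1, -0.50, -0.43 and -0.47 in siATF4, and -0.34, -0.45 and -0.42 in siMESH1+siATF4. Arrays with ATF4 silenced were the lowest. Its fall was 0.47 in siATF4 (SE 0.05, adjusted p = 1.3e-05), 0.16 in siMESH1 and 0.40 in siMESH1+siATF4. The 4 PSME3 probe sets were unequal in siATF4, from -0.82 to -0.10. PSME4, the PA200 activator, was -0.04, 0.05 and 0.00 in siNT, -0.21, -0.14 and -0.23 in siMESH1, -0.04, -0.04 and -0.05 in siATF4, and 0.05, 0.05 and -0.08 in siMESH1+siATF4. It fell in siMESH1 (-0.19, adjusted p = 0.011) and overlapped siNT in the others. The 3 PSME4 probe sets ranged from -0.21 to 0.21 in siATF4. PSMF1, an inhibitor of the core, stood between -0.02 and 0.06.

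PSMC3IP and PSME3IP1 are found by the prefix. PSMC3IP acts in homologous recombination, and PSME3IP1 binds PSME3. PSMC3IP was -1.04, -1.01 and -0.88 in siMESH1, -0.50, -0.53 and -0.62 in siATF4, and -0.89, -0.81 and -0.89 in siMESH1+siATF4, against 0.00, 0.06 and -0.06 in siNT. It was called in all 3, at -0.98 (adjusted p = 5.4e-08), -0.55 (adjusted p = 1.4e-05) and -0.86 (adjusted p = 1.4e-07), and its pair of probe sets gave -1.52 and -0.44 in siMESH1. PSME3IP1 was -0.57, -0.51 and -0.50 in siMESH1, 0.14, 0.32 and 0.23 in siATF4, and 0.02, -0.01 and 0.02 in siMESH1+siATF4, against -0.02, 0.06 and -0.04 in siNT. It was called in siMESH1 (-0.53, SE 0.06, adjusted p = 8e-06), fell just short of the minimum without siNT replicate 2, at -0.50, and rose by 0.23 in siATF4 (adjusted p = 0.0066). Apart from these, 4 of the 6 members called in siMESH1 encode a subunit or an assembly chaperone.

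ATF4 knockdown alone gave fewer changes. In siATF4 16 of the 41 members fell (39.0%, against 13.8% of all genes) and 3 rose (against 14.8%), whereas 5 fell and 17 rose with centring on the housekeeping mean and 13 fell and 3 rose with their median. Their median was -0.10, and that of all genes 0.02. The 3 rises were those of PSMB9, PSMD5 and PSME3IP1, of which 1 was left without siATF4 replicate 2. Falls were called for PSMA5, PSMC3IP and PSMC6, against 4.03% of all genes, and rises for 0 members, against 2.49%, also at an unadjusted p and by the methods' t-test.

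With both silenced, 21 members fell (51.2%, against 16.0% of all genes) and 1, PSMB9, rose (against 19.5%), but 10 fell and 18 rose with centring on the housekeeping mean and 13 fell and 7 rose with their median. The median of the members was -0.14, and that of all genes 0.01. Falls were called for PSMA5, PSMC3IP, PSMG1 and PSMB8, against 5.25% of all genes, and rises for 0 members, against 4.4%, also at an unadjusted p and by the methods' t-test.

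Adding ATF4 knockdown to MESH1 knockdown raised part of the members. Relative to siMESH1, 12 of the 41 rose in siMESH1+siATF4 (29.3%, against 15.6% of all genes) and 4 fell (against 12.4%), whereas 6 rose and 8 fell with centring on the mean or the median of the housekeeping genes. Rises were called for PSMB9 (0.66), PSME3IP1 (0.54, adjusted p = 1e-05) and PSMG1 (0.51, adjusted p = 1.6e-05), against 3.42% of all genes. PSMG1 dropped just below the fold minimum without siMESH1+siATF4 replicate 1 (0.49) or siMESH1 replicate 3 (0.50). Falls were called for 0 members, against 2.68% of all genes, also at an unadjusted p and by the methods' t-test. PSMB10 (0.42), PSMD11 (0.41), PSMC2 (0.26), PSMD12 (0.22), PSME4 (0.20), PSMB7 (0.19), PSMD6 (0.18), PSMB1 (0.18) and PSMD14 (0.16) rose by less. The falls were those of PSME3 (-0.24), PSMD10 (-0.20), PSMB8 (-0.19) and PSMC6 (-0.13). Of the falls 2 passed without siMESH1+siATF4 replicate 3 or siMESH1 replicate 1. The amount of each siRNA in the combined transfection is not stated and HDDC3 was not analysed here, so whether MESH1 was silenced equally in siMESH1 and siMESH1+siATF4 was not tested. This comparison shares its siMESH1 arrays with that of siMESH1 against siNT, so the values are not independent of each other.

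Adding MESH1 knockdown to ATF4 knockdown lowered fewer. Relative to siATF4, 10 members fell in siMESH1+siATF4 (24.4%, against 5.57% of all genes) and 0 rose (against 6.16%, and 0 also at an unadjusted p under 0.05), but 3 fell and 4 rose with centring on the mean or the median of the housekeeping genes. PSMA5 (-0.32), PSMC3IP (-0.31) and PSMG1 (-0.30) fell most, followed by PSMA7, PSME3IP1, PSMD12, PSMD14, PSMA3, PSMC4 and PSMC2, at -0.22 to -0.16. The count fell to 5 without siATF4 replicate 3 or siMESH1+siATF4 replicate 1, to 6 without siATF4 replicate 2 or siMESH1+siATF4 replicate 2, and to 4 with only the groups compared. None reached the fold minimum in limma or in the methods' t-test, against 1.28% of all genes called lower and 0.351% called higher.

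The interaction asks whether the change with both silenced differs from the sum of the single changes. It was positive for 17 members (41.5%, against 7.84% of all genes) and negative for 0 members (against 4.06%, and 0 also at an unadjusted p), whereas 3 were positive and 11 negative with centring on the housekeeping mean and 6 were positive and 2 negative with their median. The positive count was 10 without siMESH1+siATF4 replicate 1, and 11 without siNT replicate 1 or any 1 of the siMESH1 arrays. A positive value means that the combined change was higher than the sum, be it less negative or above 0. The interaction too was read without a check that MESH1 was silenced equally in both groups. For PSMG1 the sum was -1.40 and the combined change -0.60, an interaction of 0.80 (SE 0.08, adjusted p = 2.5e-05). For PSMC3IP the sum was -1.52 and the combined change -0.86 (interaction 0.66, SE 0.08, adjusted p = 0.00019), and for PSMA5 they were -1.40 and -0.89 (interaction 0.51, SE 0.09, adjusted p = 0.0023). These 3 were called, against 3.46% of all genes higher, and 0 were called lower, against 0.853%, which limma gave at an unadjusted p too. The pair of PSMC3IP probe sets was unequal, with interactions of 1.08 and 0.24.

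PSMB9 had an interaction of 0.43 (adjusted p = 0.0067), PSMD11 0.40 (adjusted p = 0.0074), PSMD14 0.39 (adjusted p = 0.0017), PSMC6 0.37 (adjusted p = 0.0025), PSMB10 0.36 (adjusted p = 0.02) and PSMB8 0.28 (adjusted p = 0.026). The value for PSMB8 was -0.01 with centring on the housekeeping mean. The call for PSMA5 lay near the fold minimum and ended, with values from 0.46 to 0.50, without siATF4 replicate 1, siMESH1+siATF4 replicate 1 or 2, siMESH1 replicate 1 or siNT replicate 1.

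**Figure D4:**
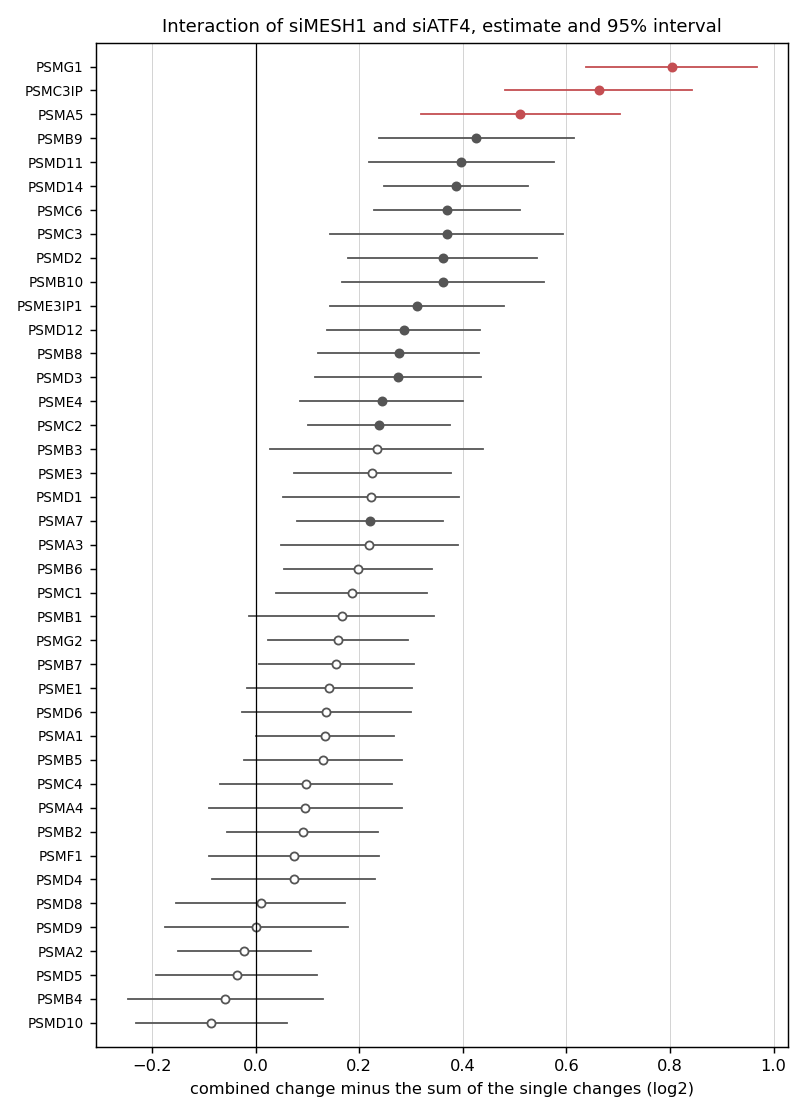
Interaction of the knockdowns (x axis, log2: combined change minus the sum of the single changes) for the 41 members (y axis, in order), with 95% intervals; points are filled where the adjusted p was under 0.05 and red where the value was also at least 0.5. PSMG1, PSMC3IP and PSMA5 have the largest values, and 37 of the 41 estimates lie above 0.

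The scaling of the arrays bears on every count above. Centring on the housekeeping genes moved all values of siMESH1 up by 0.37 (mean) or 0.25 (median), those of siATF4 by 0.18 or 0.05, and those of siMESH1+siATF4 by 0.26 or 0.14. As deposited the housekeeping genes were not steady: 7 of the 10 fell in siMESH1 (70.0%, against 73.2% of the members), with a median of -0.26. TFRC, HPRT1 and PGK1 were called there, at -1.17, -0.66 and -0.53. These falls are read on the deposited scaling, so a shift of these genes and one of the arrays cannot be told apart. Their spread, from -1.17 to -0.06, is one that no centring moves. Relative to the median of all genes, a difference that no such centring moves, the median constitutive subunit stood at -0.32 in siMESH1, at -0.12 in siATF4 and at -0.20 with both silenced. Against siNT it turned to 0.08, 0.08 and 0.07 with the housekeeping mean. PSMG1 and PSMC3IP remained called in siMESH1 with the housekeeping mean, at -0.74 and -0.61, while PSMA5 stood at -0.47.

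**Figure D5:**
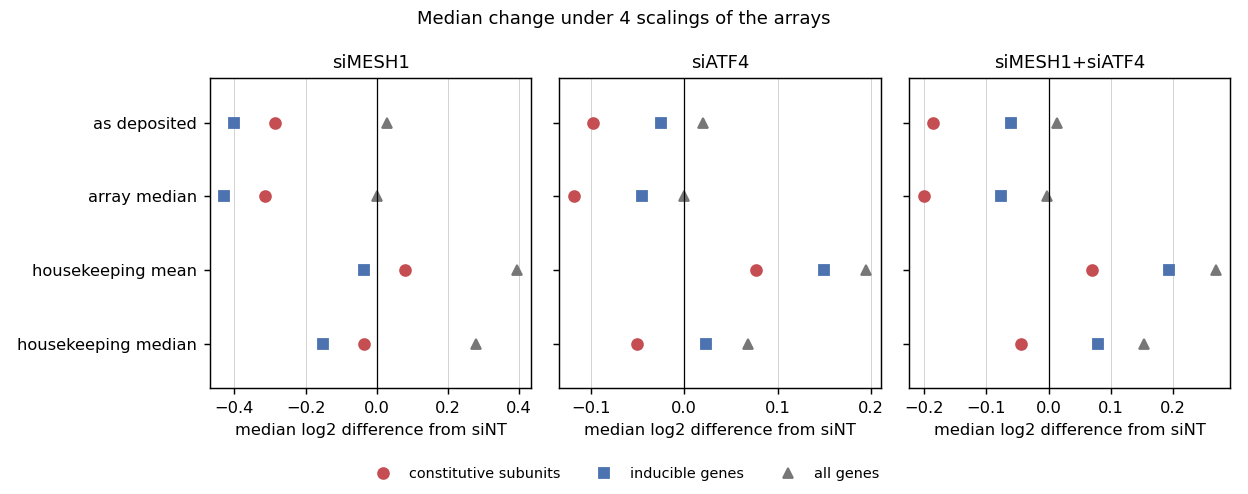
Median log2 difference from siNT (x axis) of the 27 constitutive subunits, the 4 inducible genes and all 11963 genes under 4 scalings of the arrays (y axis) in siMESH1, siATF4 and siMESH1+siATF4. The constitutive subunits lie below all genes in every panel, and their position against 0 changes with the housekeeping mean.

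The genes that work beside the proteasome moved in part; their values are given as deposited. Of 18 associated factors and ubiquitin receptors 8 fell (44.4%, against 16.3% of all genes) and 2 rose (11.1%, against 17.3%) in siMESH1. In siATF4 4 fell (22.2%, against 13.8%) and 1 rose (5.56%, against 14.8%), and in siMESH1+siATF4 6 fell (33.3%, against 16.0%) and 3 rose (16.7%, against 19.5%), with medians of -0.08, 0.00 and -0.03. UCHL5, a deubiquitinase of the 19S particle, fell by 0.50, 0.73 and 0.75, and was called in siATF4 (adjusted p = 4e-06) and siMESH1+siATF4 (adjusted p = 1.8e-06). VCP, the segregase that delivers substrates, fell by 0.35, 0.30 and 0.38. ECPAS, an adaptor of the proteasome, fell by 0.34, 0.24 and 0.27, and UFD1, a cofactor of VCP, by 0.29, 0.23 and 0.25. PAAF1, which binds the ATPases, rose in all 3 groups, by 0.20, 0.30 and 0.49.

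Of 16 regulators of proteasome genes 3 fell (18.8%, against 16.3% of all genes) and 2 rose (12.5%, against 17.3%) in siMESH1, shares near those of all genes. In siATF4 2 fell (12.5%, against 13.8%) and 4 rose (25.0%, against 14.8%), and in siMESH1+siATF4 4 fell (25.0%, against 16.0%) and 7 rose (43.8%, against 19.5%). NFE2L1 did not pass in any of these, with values of 0.03, -0.11 and -0.08. NFE2L3, a related factor, fell by 1.40 in siMESH1 (SE 0.07, adjusted p = 7.4e-09) and by 0.48 in siMESH1+siATF4, a difference of 0.92 between these groups (adjusted p = 7.1e-07). KEAP1, the adaptor that holds NFE2L2 for degradation, fell by 0.83 in siMESH1 (adjusted p = 2.1e-08) and by 0.39 in siMESH1+siATF4. BACH1, a repressor at antioxidant response elements, rose by 0.43, 0.62 and 0.71, and MAFF, a small partner of these factors, fell by 0.47, 0.50 and 0.66.

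Of 20 antigen presentation genes 4 fell, a share near the 16.3% of all genes, and 1 rose (5.0%, against 17.3%) in siMESH1. In siATF4 8 rose (40.0%, against 14.8%) and in siMESH1+siATF4 7 rose (35.0%, against 19.5%), with medians over the groups of -0.04, 0.16 and 0.09. TAP1, whose start lies near that of PSMB9, stood at -0.04 in siMESH1 (95% interval -0.15 to 0.07), where PSMB9 fell, and rose by 0.29 in siATF4 and 0.33 in siMESH1+siATF4, where PSMB9 rose too. THOP1, a peptidase that degrades short peptides, fell by 0.34 in siMESH1, and HLA-E rose by 0.31 in siATF4 and 0.35 in siMESH1+siATF4. Of 5 ubiquitin and related genes 1 fell in siMESH1 (against 16.3% of all genes). In siATF4 1 fell (against 13.8%) and 2 rose (against 14.8%), and in siMESH1+siATF4 1 fell (against 16.0%) and 1 rose (against 19.5%). Whether counts among so few genes differ from these shares was not tested. UBA1, the enzyme that activates ubiquitin, fell by 0.25 in siATF4 and by 0.27 in siMESH1+siATF4. The interferon-induced modifier ISG15 fell by 0.42 in siMESH1 and rose by 0.24 in siATF4, and UBE2L6, its conjugating enzyme, rose by 0.31 in siATF4 and 0.28 in siMESH1+siATF4.

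Leukocytes carry immunoproteasome subunits without induction, so their markers were read beside these genes. Of 10 leukocyte markers measured of 12 listed, 2 rose in siATF4 (against 14.8% of all genes), CD14 by 0.25 and ITGAM by 0.24. There 1 fell (against 13.8%), LYZ by 0.34. Both counts were near the shares of all genes. In siMESH1 the 10 ranged from -0.17 to 0.19 and none passed in limma, with 2 (LYZ and NKG7) at an unadjusted p under 0.05. In siMESH1+siATF4 they ranged from -0.19 to 0.18. The 4 endothelial markers ranged from -0.06 to 0.20 over the silenced groups. Of 5 markers of renal tubule and clear cell carcinoma PAX2 rose by 0.22 to 0.32 in the silenced groups and NNMT fell by 0.16 in siATF4. The table holds no levels, so presence of these markers could not be checked. As a reading of RNA quality, the 5′ ACTB control was subtracted from the 3′ one, a value that rises when RNA is degraded. It was 0.00 in siNT, -0.11 (SD 0.15) in siMESH1, -0.29 (SD 0.08) in siATF4 and -0.30 (SD 0.13) in siMESH1+siATF4, and that of GAPDH was 0.08, -0.09 and -0.02 in the silenced groups. The part of these differences in the results was not tested.

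For the 17 members with several probe sets the gene value hides differences between them. In siMESH1 the probe sets of PSMA2, PSMB1, PSMB2, PSMB4, PSMD4, PSMD5, PSMD9 and PSMF1 pointed in opposite directions, and those of PSMB2 ranged from -0.43 to 0.04. For PSMD11 both were below 0 in siMESH1, at -0.76 and -0.32. In siATF4 the probe sets of 9 members pointed in opposite directions: PSMA2, PSMB1, PSMB2, PSMC2, PSMD4, PSMD11, PSMD12, PSME4 and PSMF1. Those of PSMC2, PSMD11 and PSME4 ranged there from -0.13 to 0.17, -0.10 to 0.13 and -0.21 to 0.21. With both silenced 5 members had such probe sets: PSMA2, PSMB1, PSMB4, PSMD4 and PSME4. The 24 members outside the 17, among them PSMG1, PSMA5, PSMD14, PSMB8, PSMB9 and PSMB10, rested on 1 probe set each.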

How the data were processed

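RNA from RCC4 cells was hybridised to 12 Affymetrix arrays. Per the file headers and the labels, the authors deposited log2 signal intensities after RMA in Affymetrix Expression Console, from which the siNT mean of each probe set had been subtracted (the largest siNT mean left was 0.00012); the sources used here give no tool versions. Absolute signal is thereby lost, so no probe set could be filtered on level or background, and precision is limited by having 3 arrays a group.

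Of 22277 probe sets, 62 controls were left out. Symbols came from the platform annotation, updated by Entrez identifier: 19064 probe sets had 1 symbol, 1043 several and 2108 none. Probe sets with 1 symbol were averaged per gene (11963 genes). All groups were fitted in limma 3.58.1 (R 4.3.3; lmFit and eBayes, no covariate), with 8 residual and 4.32 prior degrees of freedom. Pair differences were tested by exact permutation. The fit was tested on simulated data.

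Members and gene lists were chosen with earlier results of these data known. Values per array are given for the inducible genes, their counterparts, PSME4 and every called member. Of each pathway list the called genes and up to 4 with the smallest adjusted p were named; NFE2L1, markers and housekeeping genes were chosen after their values were seen. The comparisons share arrays: those against siNT share its 3 arrays. Alternatives were other scalings, probe set filters, no fold minimum, the methods' t-test, a replicate block and leaving out each array.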

Additional observations from a re-analysis of the deposited data

Results flagged for a closer look

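As deposited, the effect of MESH1 knockdown differed with ATF4 silenced for 3 members, by the interaction term of limma past both thresholds. With centring on the housekeeping mean 1 member was called, and with their median 2. Whether MESH1 was silenced equally in both groups was not tested. The interaction was 0.80 for PSMG1 (adjusted p = 2.5e-05), 0.66 for PSMC3IP (adjusted p = 0.00019, probe sets at 1.08 and 0.24) and 0.51 for PSMA5 (adjusted p = 0.0023). All 3 siMESH1 arrays lay below all siNT arrays for each of these genes, and all 3 siMESH1+siATF4 arrays below all siATF4 arrays.

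Probe sets that carry a second symbol were outside the comparisons of members. The probe set annotated to both MIR7703 and PSME2, the beta chain of PA28, was -0.54 in siMESH1 (SE 0.07, adjusted p = 5e-05 over 22215 probe sets), -0.07 in siATF4 and -0.25 in siMESH1+siATF4. It was 0.29 higher in siMESH1+siATF4 than in siMESH1 (adjusted p = 0.0064). Of the pair annotated to both PRORP and PSMA6, an alpha ring subunit, one was -0.53 in siMESH1 (SE 0.05, adjusted p = 3.8e-06), 0.02 in siATF4 and -0.17 in siMESH1+siATF4, and the other was -0.28 in siMESH1 (SE 0.08, adjusted p = 0.013), 0.03 in siATF4 and 0.01 in siMESH1+siATF4. Which of the annotated transcripts gave these values was not tested.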

How the results depend on the processing

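The number of called members depended most on the fold minimum and on centring on the housekeeping genes. Without a fold minimum 31, 19 and 22 members passed in siMESH1, siATF4 and siMESH1+siATF4 against siNT (6, 3 and 4 with it), 16 against siMESH1 (3), 10 against siATF4 (0) and 17 in the interaction (3). With the housekeeping mean these became 3 (2 lower and 1 higher), 0 and 2 against siNT, 1 against siMESH1 and 1 in the interaction. With the housekeeping median they became 3 in siMESH1, 2 in siMESH1+siATF4 against siNT and 1 against siMESH1. Without probe sets ending in _x_at and _s_at 2 were called in siMESH1+siATF4. The median of the constitutive subunits was 0.078, 0.077 and 0.070 in siMESH1, siATF4 and siMESH1+siATF4 with the housekeeping mean (-0.287, -0.098 and -0.186 as deposited), and -0.036, -0.050 and -0.045 with the housekeeping median. It was -0.118 in siATF4 with array median centring, and -0.116 in siATF4 and -0.144 in siMESH1+siATF4 without those probe sets, which left 20 subunits. With the housekeeping mean the members below 0 went from 39 to 16 in siMESH1, from 28 to 14 in siATF4 and from 32 to 15 in siMESH1+siATF4, and interactions above 0 from 37 to 12, so many members changed sign. As examples among the inducible genes, the interaction of PSMB8 became -0.009 with the housekeeping mean, and PSME1 in siMESH1 became 0.19 and 0.08 with the mean and the median. Such a centring moves every value of an array by 1 constant.

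Leaving out 1 array at a time, the called members numbered 5 to 8 in siMESH1, 2 to 3 in siATF4, 4 to 4 in siMESH1+siATF4, 2 to 3 against siMESH1, 0 to 0 against siATF4 and 2 to 3 in the interaction. The constitutive medians ranged from -0.312 to -0.263, -0.112 to -0.078 and -0.189 to -0.168. PSMB8 minus PSMB5 ranged from -0.281 to -0.205, -0.362 to -0.295 and -0.462 to -0.395, PSMB9 minus PSMB6 from -0.348 to -0.257, 0.367 to 0.478 and 0.306 to 0.397, and PSMB10 minus PSMB7 from -0.365 to -0.277, -0.013 to 0.075 and -0.134 to -0.046. Same-numbered arrays did not deviate together (correlations from -0.191 to 0.095 over 18 pairs), and the fit with the replicate block gave 6, 3, 4, 3, 0 and 3 called members. Members that passed the adjusted p alone numbered 27 to 30 lower in siMESH1, 13 to 16 in siATF4 and 18 to 21 in siMESH1+siATF4 when 1 array was left out, 5 to 10 lower against siATF4 and 10 to 16 higher in the interaction, where the replicate block gave 12.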
